A study of Mus musculus with 10 samples.

Results

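Cholesterol and fatty acids are built from the same starting compound, acetyl-CoA, and both pathways are switched on together by the SREBP transcription factors. Of 37 genes of these pathways, chosen by name as 18 sterol enzymes, 15 fatty acid genes and 4 regulators, 35 had a value among the 21225 probe sets measured, each of which stands for 1 gene. The sterol enzymes Hmgcs1 and Idi1 were not analysed here. The RNA was that of wild-type mouse forebrain at embryonic day 15.5, and each embryo had its own array, an Affymetrix Mouse Gene 1.0 ST. The diets of the dams compared were a powdered chow (Bioserv F3197, 5 embryos) and a pelleted chow (Teklad 2918, 5 embryos), each given from the start of breeding. In both diets C57Bl/6J dams had been mated with Ts1Cje males, carriers of a partial trisomy, and the embryos measured did not carry it. Each embryo came from a different litter. The powdered chow is a purified diet richer in carbohydrate and slightly richer in fat. It holds more of both linoleic acid and the omega-3 linolenic acid. It is poorer in most vitamins and minerals and without isoflavones, so the diets differ in much more than texture.

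In the developing brain cholesterol is made locally, because lipoproteins of the blood do not reach it once the barrier has formed, and dividing progenitors and growing axons need it for membrane. The mevalonate pathway joins acetyl-CoA units into isoprenoids and then into squalene, which is closed into lanosterol and trimmed to cholesterol. Fatty acids are built as palmitate by acetyl-CoA carboxylase and fatty acid synthase, then lengthened by the elongases and given double bonds by the desaturases. The polyunsaturated fatty acids in which brain membranes are rich are made not from palmitate but from linoleic and linolenic acid of the diet. Elongases and desaturases act on that route too. When sterol is scarce, Scap carries the SREBP precursors to the Golgi apparatus, where proteases free the active factors. Insig proteins hold Scap back when sterol is plentiful.

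Of the 35 genes, 8 were higher and 16 lower in powdered chow embryos at a limma adjusted p under 0.05, and 11 did not pass. Those called made up 68.6% of the genes, against 43.1% of all probe sets, of which 21.2% were called higher and 21.8% lower. Bright probe sets were called more often. With only probe sets above the median brightness kept, and so as many dropped as kept, 7080 were called, against 9146 of all 21225. Most of the probe sets kept were thus called. Of the 35 genes 32 lay above that median, with 23 of them called in that refit. The share of all probe sets called, here and below, is thus lower than that of probe sets as bright as most of these genes. A share above it is not an excess over equally bright probe sets, which was not tested. The values of the diets did not overlap for 7 genes that were higher and 13 that were lower, against 32.6% of all probe sets without overlap (16.9% with all powdered chow arrays higher and 15.7% with all lower). Both pathways held genes of either direction. Neighbouring enzymes went in opposite directions, with Pmvk 1.72-fold higher beside Mvk and Mvd, which were lower, and Acly and Acaca higher beside Fasn, which was lower. Of the genes, only Pmvk and Fads2 also passed the stricter limits of the study's methods (a fold change above 1.5, a raw p under 0.001 and an adjusted p under 0.01), which 8.27% of all probe sets passed (4.84% higher and 3.43% lower). The median difference over the 35 genes was -0.12 on the log2 scale, powdered minus pelleted chow, against -0.0243 over all probe sets. A difference on this scale is a log2 fold change, and levels of different genes are not compared, since probe sets differ in brightness.

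The animal numbers of the diets do not overlap and the labels give no litter, sex, slide or scan date, so diet cannot be told apart from preparation. Arrays were alike in scale, with a lower quartile of 6.33 to 6.53 on the log2 scale and a mean correlation with the other arrays of the same diet of 0.992 or higher. Their quality weights in limma, used in an alternative below, were less alike. On pelleted chow animals 05 and 11 had weights of 0.4108 and 0.4702, against 1.389 to 2.001 for the others. On powdered chow animals 108 and 111 had 0.6104 and 0.6603, against 1.229 to 1.514. Markers of other cells were measured as lists of genes, whose counts stand beside the 43.1% of all probe sets called (21.2% higher and 21.8% lower), and the lists had 12.5% to 62.5% called. Of 8 oligodendrocyte lineage genes 1 was higher and 4 were lower in powdered chow embryos, and the list averaged 8.10 to 8.25 per array in powdered chow embryos and 8.31 to 8.50 in pelleted chow embryos. Of 7 erythroid genes 2 were higher, with list averages of 7.66 to 7.93 in powdered chow embryos and 6.99 to 7.76 in pelleted chow embryos. On pelleted chow the animals 05 and 07 stood apart, with erythroid averages of 7.76 and 7.68 against 7.13, 6.99 and 7.03 in animals 09, 11 and 15. Hbb-b1, a globin gene, was 3.07-fold higher in powdered chow embryos (limma adjusted p = 0.00254), at 10.45 to 11.05 in powdered chow embryos and 8.04 to 10.17 in pelleted chow embryos. Of 8 genes of meninges and choroid plexus 3 were higher and 1 was lower, and the list averages did not overlap, at 9.10 to 9.28 in powdered chow embryos and 8.97 to 9.08 in pelleted chow embryos. Among them Col3a1, a collagen gene of meningeal fibroblasts, was 1.68-fold higher (limma adjusted p = 1.14e-07), the largest difference of the list. Col1a2 and Dcn were higher by 0.24 and 0.26 on the log2 scale, and Kl was lower by 0.31. Col1a1, another collagen gene, did not pass (difference -0.09), nor did Lum, Ttr and Folr1. Of 8 midbrain and hindbrain genes 3 were lower, with list averages of 6.73 to 6.99 in powdered chow embryos and 6.96 to 7.27 in pelleted chow embryos. Of 8 radial glia genes 1 was higher and 3 were lower, with list averages of 10.01 to 10.16 in powdered chow embryos and 10.13 to 10.29 in pelleted chow embryos. Of 8 neuron genes 3 were higher and 1 was lower, with list averages of 11.74 to 11.84 in powdered chow embryos and 11.62 to 11.69 in pelleted chow embryos. Of 8 genes of liver and fat, which make much lipid, none was higher and 1 was lower, with list averages of 7.02 to 7.23 in powdered chow embryos and 7.11 to 7.25 in pelleted chow embryos. The average of that list includes Ttr, a bright gene shared with choroid plexus, at 12.54 ± 0.08 in powdered chow embryos and 12.39 ± 0.10 in pelleted chow embryos (SD, n = 5 each), while Alb and Cyp7a1, which define liver, and Adipoq, which defines fat, lay at percentiles 19.5, 4.0 and 8.93 of all probe sets by brightness. Forebrain genes (4 of 8 higher, none lower) averaged 9.51 to 9.70 in powdered chow embryos and 9.29 to 9.60 in pelleted chow embryos. Microglia genes (2 of 8 higher, 3 lower) averaged 7.52 to 7.69 in powdered chow embryos and 7.55 to 7.78 in pelleted chow embryos, and endothelial genes (3 of 8 higher, 2 lower) averaged 9.12 to 9.24 in powdered chow embryos and 9.18 to 9.25 in pelleted chow embryos. The part of these cell types in the results below was not tested. In whole forebrain fewer cells of a type and less RNA per cell cannot be told apart.

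Promoters of the sterol enzymes shared sequence motifs, and those of 5 genes are shown because they moved differently between the diets: Cyp51 and Sc5d were higher in powdered chow embryos, and Hsd17b7, Srebf2 and Fads2 lower. Each is the 250 bases before the gene's start, from RefSeq on build GRCm38.p6, written 5′ to 3′ along the gene. Capitals mark CCAAT, the box bound by NF-Y, and GGGCGG, the box bound by Sp1, on either strand.
Cyp51, chr5:4104698-4104947, minus strand: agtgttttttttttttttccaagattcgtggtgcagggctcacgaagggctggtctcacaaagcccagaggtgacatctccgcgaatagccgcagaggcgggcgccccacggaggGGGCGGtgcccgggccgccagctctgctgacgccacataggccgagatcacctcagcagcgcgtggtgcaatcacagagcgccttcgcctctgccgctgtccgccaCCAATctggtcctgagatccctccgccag
Sc5d, chr9:42264301-42264550, minus strand: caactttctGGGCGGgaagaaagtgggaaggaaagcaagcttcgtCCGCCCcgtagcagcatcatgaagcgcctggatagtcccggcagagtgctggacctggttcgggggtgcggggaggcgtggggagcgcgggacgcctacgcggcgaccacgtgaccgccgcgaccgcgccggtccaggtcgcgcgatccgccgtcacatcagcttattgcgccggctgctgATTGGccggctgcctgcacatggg
Hsd17b7, chr1:169969206-169969455, minus strand: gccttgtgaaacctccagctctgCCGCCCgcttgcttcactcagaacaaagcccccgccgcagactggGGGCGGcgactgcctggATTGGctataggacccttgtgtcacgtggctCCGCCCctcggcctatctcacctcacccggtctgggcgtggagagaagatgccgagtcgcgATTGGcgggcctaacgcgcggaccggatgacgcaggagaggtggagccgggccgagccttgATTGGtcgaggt
Srebf2, chr15:82147019-82147268, plus strand: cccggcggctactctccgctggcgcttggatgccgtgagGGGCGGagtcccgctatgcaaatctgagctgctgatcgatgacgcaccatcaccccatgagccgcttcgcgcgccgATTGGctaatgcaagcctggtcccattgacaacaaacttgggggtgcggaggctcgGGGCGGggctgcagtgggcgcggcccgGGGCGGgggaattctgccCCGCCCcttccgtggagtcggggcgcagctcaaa
Fads2, chr19:10101504-10101753, minus strand: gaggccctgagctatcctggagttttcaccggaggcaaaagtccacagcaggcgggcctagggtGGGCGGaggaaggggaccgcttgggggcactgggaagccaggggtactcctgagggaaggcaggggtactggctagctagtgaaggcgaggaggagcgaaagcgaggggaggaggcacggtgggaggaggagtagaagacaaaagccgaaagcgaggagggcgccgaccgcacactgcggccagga

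NF-Y and Sp1 are known partners of SREBP. Among the sterol enzymes with a promoter sequence, CCAAT or its reverse complement was in 12 of 13 (92.3%) and GGGCGG or its reverse complement in 12 of 13 (92.3%). Among the promoters of 12 fatty acid genes CCAAT was in 5 (41.7%) and GGGCGG in 6. Of the promoters of all 27025 genes in the RefSeq table, 37.5% held CCAAT and 35.4% held GGGCGG. Of the sterol enzymes with a promoter, CCAAT was in 3 of 3 called higher and in 4 of 5 called lower, and GGGCGG in 2 of 3 called higher and in 5 of 5 called lower. Hsd17b7, which was lower, held 3 CCAAT and 3 GGGCGG boxes. Cyp51, which was higher, held 1 of each, and Sc5d, also higher, held 1 CCAAT and 2 GGGCGG boxes. Box numbers of the other sterol enzymes are not given here, and whether they go with direction was not tested. Srebf2 held 1 CCAAT and 4 GGGCGG boxes, and Fads2 held no CCAAT and 1 GGGCGG box. The E-box CACGTG, a sequence that SREBP can bind and that reads the same on both strands, was in 3 of the 13 sterol enzyme promoters (23.1%), in 1 of the 12 fatty acid gene promoters (8.33%) and in 6.86% of all promoters. The core of the sterol regulatory element, TCACNCCAC, to which SREBP binds, was searched on both strands and was in none of the 13 sterol enzyme, 12 fatty acid gene and 4 regulator promoters, and in 1.22% of all promoters. A match describes the letters and is not a site of binding, and the lack of a match says only that these letters are not in the 250 bases.

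Of the 16 sterol enzymes measured, 4 were higher in powdered chow embryos (Pmvk, Cyp51, Sc5d and Fdft1), 6 were lower (Acat2, Mvk, Mvd, Fdps, Tm7sf2 and Hsd17b7) and 6 did not pass (limma, adjusted p under 0.05). Those lower made up 37.5%, against 21.8% of all probe sets, and those higher 4 of 16, near the 21.2% of all probe sets. The falls lay mainly in the mevalonate steps, where 4 of 5 enzymes were lower and the median difference was -0.35. From lanosterol to cholesterol 2 of 8 enzymes were higher and 2 lower, with a median difference of 0.03. The median difference of all 16 was -0.09 on the log2 scale and the median size without sign was 0.25, against 0.17 over all probe sets.

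**Figure D1:**
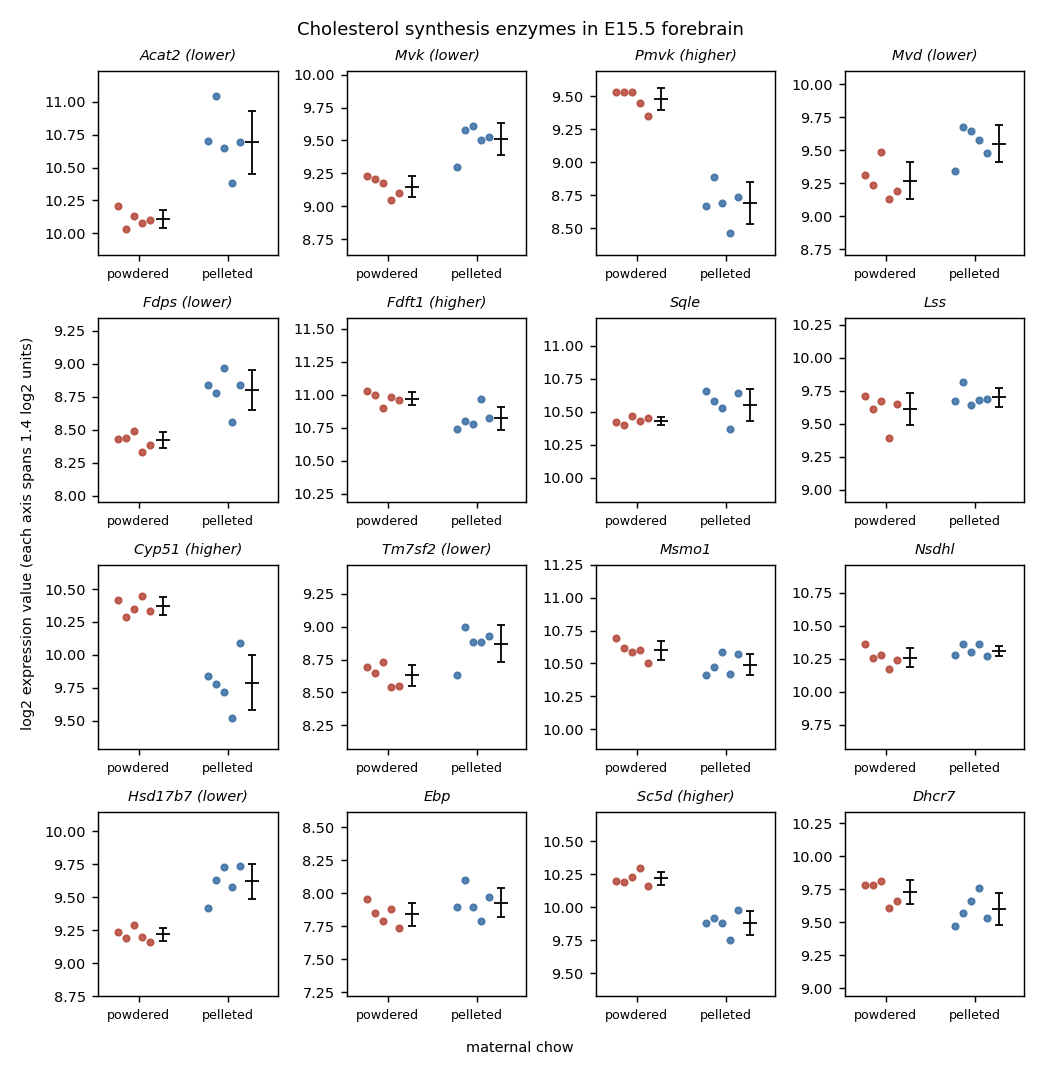
Log2 expression (y axis, each panel spanning 1.4 units) of the sterol enzymes in each embryo, powdered chow left of pelleted chow, with a point per array and a bar at the mean ± SD (n = 5 each). Pmvk, Cyp51 and Sc5d show all powdered chow points above the pelleted chow points, and Acat2, Mvk, Fdps and Hsd17b7 show all of them below.

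Acat2, the cytosolic thiolase that joins acetyl-CoA units at the entry of the pathway, had log2 values of 10.21, 10.03, 10.13, 10.08 and 10.10 in the powdered chow embryos, against 10.70, 11.04, 10.65, 10.38 and 10.69 in the pelleted chow embryos. These values, and those that follow, are in the order of animals 87, 88, 108, 111 and 115 on powdered chow and animals 05, 07, 09, 11 and 15 on pelleted chow. All powdered chow arrays lay below the lowest pelleted chow array, animal 11, and the pelleted chow arrays were the more spread. The difference was -0.58 ± 0.10 (SE), a fold of 0.668, with a limma adjusted p of 0.000285.

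Mvk, the kinase that phosphorylates mevalonate, had log2 values of 9.23, 9.21, 9.18, 9.05 and 9.10 in the powdered chow embryos, against 9.30, 9.58, 9.61, 9.50 and 9.53 in the pelleted chow embryos. The diets did not overlap, although animal 05 on pelleted chow stood close to the highest powdered chow arrays. The difference was -0.35 ± 0.07 (limma adjusted p = 0.000817).

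Pmvk, the kinase of the next step, went the other way and had log2 values of 9.53, 9.53, 9.53, 9.45 and 9.35 in the powdered chow embryos, against 8.67, 8.89, 8.69, 8.46 and 8.74 in the pelleted chow embryos. Every powdered chow array was above every pelleted chow array, with a gap wider than the range within either diet. The difference was 0.79 ± 0.08 (1.72-fold, limma adjusted p = 3.01e-06), which placed Pmvk 503rd from the highest of all probe sets.

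Mvd, the decarboxylase that follows Pmvk and yields isopentenyl diphosphate, had log2 values of 9.31, 9.24, 9.49, 9.13 and 9.19 in the powdered chow embryos, against 9.34, 9.68, 9.65, 9.58 and 9.48 in the pelleted chow embryos. The diets overlapped, since animal 108 on powdered chow lay among the pelleted chow arrays and animal 05 on pelleted chow among the powdered chow arrays. The difference was -0.27 ± 0.08 (limma adjusted p = 0.0155).

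Fdps, which makes farnesyl diphosphate, the branch point towards sterols, prenyl groups and ubiquinone, had log2 values of 8.43, 8.44, 8.49, 8.33 and 8.38 in the powdered chow embryos, against 8.84, 8.78, 8.97, 8.56 and 8.84 in the pelleted chow embryos. No array crossed into the range of the other diet, and animal 11 was the lowest on pelleted chow and the nearest to the lower powdered chow arrays. The difference was -0.38 ± 0.07 (limma adjusted p = 0.000787).

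Squalene and the sterol ring are formed by Fdft1 (squalene synthase), Sqle (squalene epoxidase) and Lss (lanosterol synthase). Fdft1 was higher by 0.15 ± 0.06 on the log2 scale, at 10.90 to 11.03 in powdered chow embryos and 10.74 to 10.97 in pelleted chow embryos, with a limma adjusted p of 0.0436. The diets overlapped through animal 11 on pelleted chow, and the call was lost when any of 8 of the 10 arrays was left out. Sqle and Lss did not pass, with 95% intervals of -0.25 to 0.01 and of -0.24 to 0.05 for the difference.

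Cyp51, the lanosterol demethylase that opens the trimming of the sterol, had log2 values of 10.42, 10.29, 10.35, 10.45 and 10.33 in the powdered chow embryos, against 9.84, 9.78, 9.72, 9.52 and 10.09 in the pelleted chow embryos. The diets did not overlap, and the pelleted chow arrays were spread between a low animal 11 and a high animal 15. The difference was 0.57 ± 0.09 (1.49-fold, limma adjusted p = 0.000152). Its promoter, shown above, held 1 CCAAT box near the start of the gene.

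Hsd17b7, a ketone reductase that works with Msmo1 and Nsdhl in the removal of the sterol's methyl groups, had log2 values of 9.24, 9.19, 9.29, 9.20 and 9.16 in the powdered chow embryos, against 9.42, 9.63, 9.73, 9.58 and 9.74 in the pelleted chow embryos. Powdered chow arrays were lower without overlap, within a narrow range. The difference was -0.40 ± 0.07 (0.757-fold, limma adjusted p = 0.000242).

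Sc5d, the desaturase that makes the sterol Dhcr7 turns into cholesterol, had log2 values of 10.20, 10.19, 10.23, 10.30 and 10.16 in the powdered chow embryos, against 9.88, 9.92, 9.88, 9.75 and 9.98 in the pelleted chow embryos. All powdered chow arrays were higher than all pelleted chow arrays. The difference was 0.33 ± 0.06 (1.26-fold, limma adjusted p = 0.000328).

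Tm7sf2, a sterol reductase acting on the product of Cyp51, was lower by 0.23 on the log2 scale (limma adjusted p = 0.0182), at 8.54 to 8.73 in powdered chow embryos and 8.63 to 9.00 in pelleted chow embryos. The overlap came from animal 05 alone, the lowest on pelleted chow. The other enzymes of the trimming did not pass. The intervals of their differences were -0.02 to 0.23 for Msmo1, which oxidizes the methyl groups, -0.16 to 0.06 for Nsdhl, the dehydrogenase that follows it, -0.23 to 0.05 for Ebp, the isomerase, and -0.01 to 0.28 for Dhcr7, the reductase that yields cholesterol. Each of these intervals excludes a change as large as that of Cyp51 or Hsd17b7.

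Of the 15 fatty acid genes, 4 were higher in powdered chow embryos (Acly, Acaca, Thrsp and Elovl2), 8 were lower (Fasn, Scd1, Scd2, Fads1, Fads2, Elovl1, Elovl4 and Elovl7) and 3 did not pass (limma, adjusted p under 0.05). These shares were 26.7% higher and 53.3% lower, against 21.2% and 21.8% of all probe sets. The diets did not overlap for 12 of the 15 genes (80.0%), against 32.6% of all probe sets. These were the 12 genes called, and a call and a lack of overlap rest on the same values. By step, of the 5 genes for the building of palmitate 3 were higher and 1 lower, of the 4 desaturases all were lower, and of the 6 elongases 1 was higher and 3 lower. The median difference was -0.23 on the log2 scale and the median size without sign 0.36, against 0.17 over all probe sets.

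**Figure D2:**
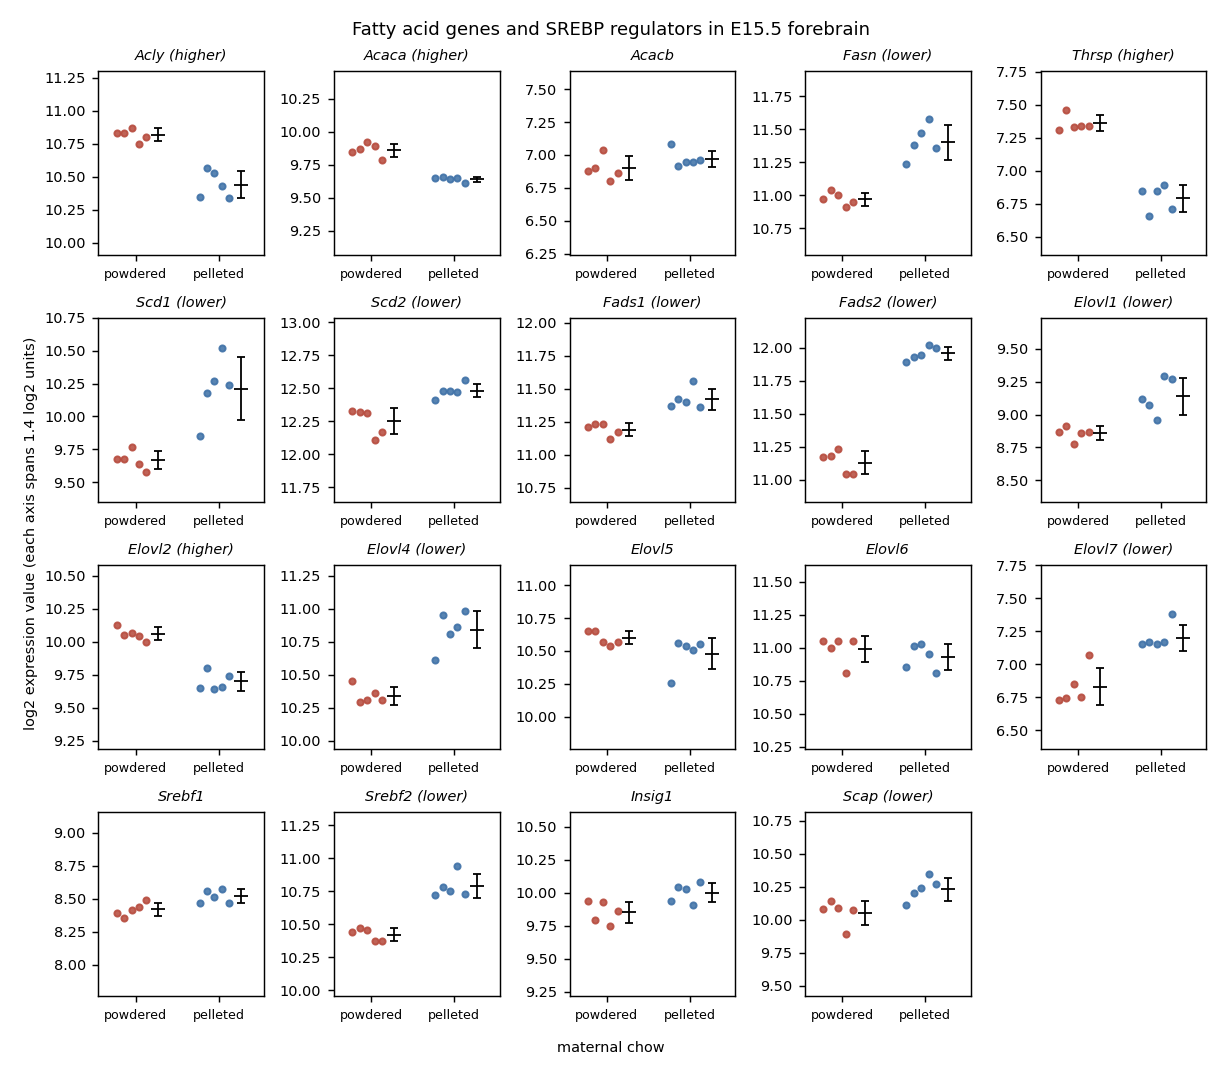
Log2 expression (y axis, each panel spanning 1.4 units) of the fatty acid genes and of the regulators in each embryo, powdered chow left of pelleted chow, with a point per array and a bar at the mean ± SD (n = 5 each). Fads2 shows the widest gap, with powdered chow arrays at 11.04 to 11.23 and pelleted chow arrays at 11.89 to 12.02.

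Acly, the citrate lyase that supplies cytosolic acetyl-CoA to both pathways, had log2 values of 10.83, 10.83, 10.87, 10.75 and 10.80 in the powdered chow embryos, against 10.35, 10.57, 10.53, 10.43 and 10.34 in the pelleted chow embryos. All powdered chow arrays were higher, and the difference was 0.37 ± 0.06 (1.30-fold, limma adjusted p = 0.000197). Acaca, the acetyl-CoA carboxylase of fatty acid synthesis, was 1.16-fold higher, at 9.79 to 9.92 in powdered chow embryos and 9.61 to 9.66 in pelleted chow embryos (limma adjusted p = 0.00206). Acacb, the mitochondrial carboxylase whose product restrains fatty acid oxidation, did not pass, with an interval of -0.20 to 0.05.

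Fasn, the synthase that builds palmitate from the product of Acaca, had log2 values of 10.97, 11.04, 11.00, 10.91 and 10.95 in the powdered chow embryos, against 11.24, 11.38, 11.47, 11.58 and 11.36 in the pelleted chow embryos. The powdered chow arrays were all lower, and animals 05 and 11 marked the low and high ends of pelleted chow. The difference was -0.43 ± 0.06 (0.742-fold, limma adjusted p = 0.000134), opposite in sign to those of Acly and Acaca.

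Thrsp, a protein that promotes lipogenesis in liver and mammary gland, had log2 values of 7.31, 7.46, 7.33, 7.34 and 7.34 in the powdered chow embryos, against 6.85, 6.66, 6.85, 6.89 and 6.71 in the pelleted chow embryos. Each powdered chow array was above the pelleted chow arrays, with animal 88 above the rest. The difference was 0.56 ± 0.06 (1.48-fold, limma adjusted p = 7.05e-06). Thrsp lay below the median of 7.85 of all values in both diets, so its signal was dim, and the table carries no detection calls.

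Fads2, the desaturase that opens the route from linoleic and linolenic acid to the polyunsaturated fatty acids, had log2 values of 11.17, 11.18, 11.23, 11.04 and 11.04 in the powdered chow embryos, against 11.89, 11.93, 11.95, 12.02 and 12.00 in the pelleted chow embryos. The diets were far apart, and the pelleted chow arrays lay close together. The difference was -0.82 ± 0.06, a fold of 0.565, with a limma adjusted p of 2.24e-07, which was the lowest of the 35 genes. It ranked 219th from the lowest difference of all probe sets.

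Fads1, the desaturase that acts later on the same route, was lower by 0.23 on the log2 scale, at 11.12 to 11.23 in powdered chow embryos and 11.36 to 11.56 in pelleted chow embryos (limma adjusted p = 0.00385). Fads1 and Fads2 are neighbours on mouse chromosome 19, as are Scd1 and Scd2 elsewhere on that chromosome. The interval for Fads2, -0.94 to -0.70, lay wholly below that for Fads1, -0.35 to -0.11.

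Scd1, a stearoyl-CoA desaturase that makes monounsaturated fatty acids, had log2 values of 9.68, 9.68, 9.77, 9.64 and 9.58 in the powdered chow embryos, against 9.85, 10.18, 10.27, 10.52 and 10.24 in the pelleted chow embryos. The powdered chow arrays were all lower, and the pelleted chow arrays spread widely from animal 05 up to animal 11. The difference was -0.54 ± 0.10 (0.688-fold, limma adjusted p = 0.000571). Scd2, the form that is abundant in brain, was lower by 0.23 on the log2 scale, at 12.11 to 12.33 in powdered chow embryos and 12.41 to 12.56 in pelleted chow embryos (limma adjusted p = 0.00676). The paralogs are alike in sequence, and whether their probes cross-hybridize was not tested.

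Elovl4, the elongase of very long chain fatty acids in brain, retina and skin, had log2 values of 10.45, 10.29, 10.31, 10.36 and 10.31 in the powdered chow embryos, against 10.61, 10.95, 10.81, 10.86 and 10.98 in the pelleted chow embryos. Without overlap, the powdered chow arrays were lower, and animal 05 was the lowest on pelleted chow. The difference was -0.50 ± 0.07 (0.709-fold, limma adjusted p = 8.4e-05).

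Elovl2, the elongase that lengthens polyunsaturated fatty acids towards docosahexaenoic acid, was the only elongase called higher, with log2 values of 10.13, 10.05, 10.07, 10.04 and 10.00 in the powdered chow embryos, against 9.65, 9.80, 9.64, 9.66 and 9.74 in the pelleted chow embryos. All powdered chow arrays were higher than all pelleted chow arrays. The difference was 0.36 ± 0.05 (1.28-fold, limma adjusted p = 9.92e-05), opposite in sign to that of Fads2 on the same route.

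Elovl7, an elongase of long chains, had log2 values of 6.73, 6.74, 6.85, 6.75 and 7.07 in the powdered chow embryos, against 7.15, 7.17, 7.15, 7.17 and 7.38 in the pelleted chow embryos. The diets did not overlap, and animal 115 on powdered chow and animal 15 on pelleted chow stood above the others of their diets. The difference was -0.38 ± 0.08 (limma adjusted p = 0.00126), in a probe set whose values lay below the median of all values. Elovl1, an elongase of very long saturated chains, was lower by 0.29 on the log2 scale, at 8.78 to 8.91 in powdered chow embryos and 8.96 to 9.29 in pelleted chow embryos (limma adjusted p = 0.00392). Elovl5, which lengthens polyunsaturated fatty acids, and Elovl6, which lengthens palmitate, did not pass, with intervals of -0.03 to 0.25 and of -0.08 to 0.20.

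**Figure D3:**
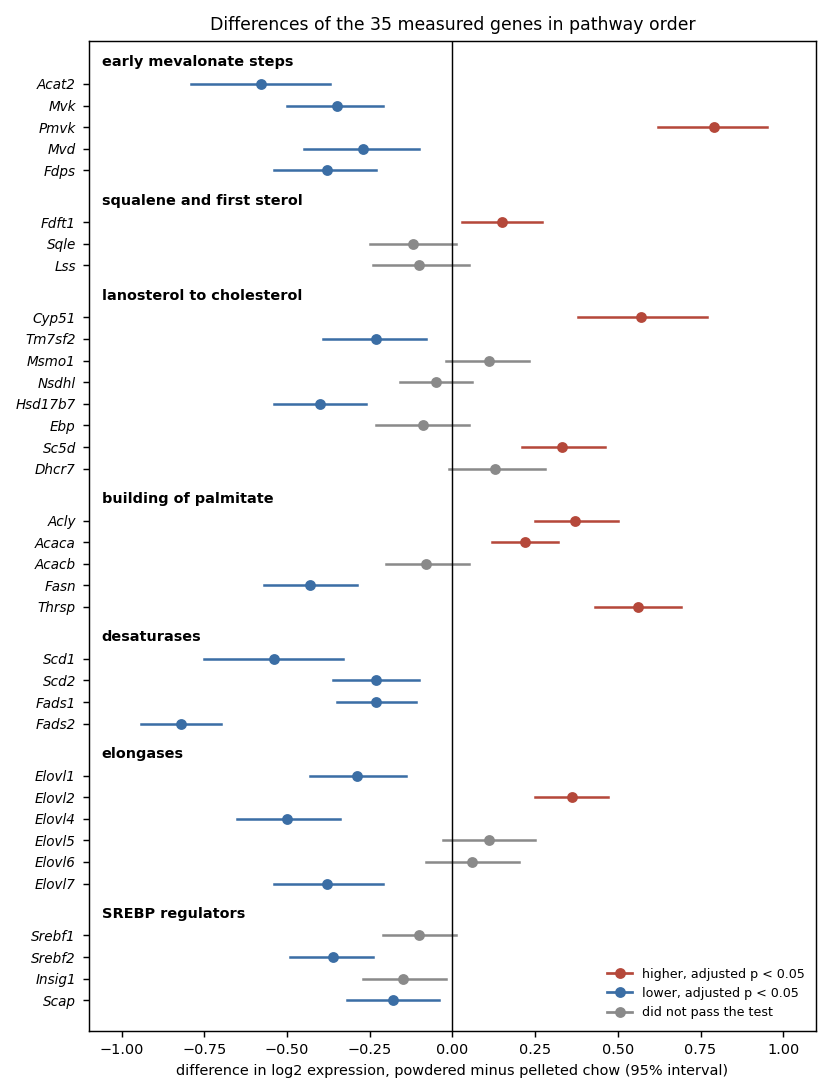
Log2 difference, powdered minus pelleted chow (x axis), of the 35 genes in pathway order (y axis), with points at the estimate and lines for the 95% interval from limma, red for called higher, blue for called lower and grey for not called. The mevalonate steps lie mostly left of 0 with Pmvk at 0.79 to the right, and all 4 desaturases lie left of 0.

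Of the 4 regulators 2 were lower in powdered chow embryos and 2 did not pass (limma, adjusted p under 0.05), against 21.8% of all probe sets called lower. Srebf2, which encodes the SREBP that drives mainly sterol synthesis, had log2 values of 10.44, 10.47, 10.46, 10.37 and 10.37 in the powdered chow embryos, against 10.72, 10.78, 10.75, 10.94 and 10.73 in the pelleted chow embryos. All powdered chow arrays were lower, and animal 11 was the highest on pelleted chow. The difference was -0.36 ± 0.06 (0.777-fold, limma adjusted p = 0.000164).

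Srebf1, which encodes the SREBPs that drive mainly fatty acid synthesis, had log2 values of 8.39, 8.35, 8.41, 8.44 and 8.49 in the powdered chow embryos, against 8.47, 8.56, 8.51, 8.57 and 8.47 in the pelleted chow embryos. The diets overlapped at a small difference of -0.10 with an interval of -0.21 to 0.01 (limma adjusted p = 0.127).

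Scap, the escort of the SREBP precursors, had log2 values of 10.08, 10.14, 10.09, 9.89 and 10.07 in the powdered chow embryos, against 10.11, 10.20, 10.24, 10.35 and 10.27 in the pelleted chow embryos. The diets overlapped, and animal 111 stood low on powdered chow. The difference was -0.18 ± 0.06 (limma adjusted p = 0.0335), and the call was lost when any of 6 of the 10 arrays was left out.

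Insig1, which retains Scap in the endoplasmic reticulum and is itself induced by SREBP, had log2 values of 9.94, 9.79, 9.93, 9.75 and 9.86 in the powdered chow embryos, against 9.94, 10.04, 10.03, 9.91 and 10.08 in the pelleted chow embryos. The diets overlapped. The difference was -0.15 ± 0.06 (limma adjusted p = 0.0585), just outside the threshold, and 9 of 10 alternatives that kept all arrays or left out a pair of them placed it inside.

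The spread among embryos of one diet is given here without a value over all probe sets beside it. The median SD over the 16 sterol enzymes was 0.07 in powdered chow embryos and 0.12 in pelleted chow embryos, and over the 15 fatty acid genes 0.06 in powdered chow embryos and 0.10 in pelleted chow embryos. No array was at the same end for every gene. Animal 111 was the lowest on powdered chow for 18 of the 35 genes, and animal 87 the highest for 13. On pelleted chow animal 05 was the lowest for 16 and animal 11 the highest for 12. Animal 11 was the lowest on pelleted chow for 7 of the 16 sterol enzymes and for none of the 15 fatty acid genes, of which it was the highest for 6.

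Genes around the pathways, taken as lists by function, were also mixed in direction. Of 11 genes for SREBP processing and partners 2 were higher and 6 lower in powdered chow embryos (18.2% and 54.5%, against 21.2% and 21.8% of all probe sets). Mbtps2, the intramembrane protease that frees the active SREBPs, had log2 values of 9.95, 9.75, 9.96, 10.01 and 9.97 in the powdered chow embryos, against 10.61, 10.57, 10.54, 10.41 and 10.69 in the pelleted chow embryos. The diets were far apart, with a difference of -0.64 ± 0.07 (0.643-fold, limma adjusted p = 6.59e-06). Erlin2, which takes part in sterol-regulated degradation in the endoplasmic reticulum, was also lower (difference -0.56, limma adjusted p = 0.000172). Nfyb, a subunit of the factor that binds the CCAAT box, was higher (difference 0.60, limma adjusted p = 0.000547).

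Of 15 genes for acyl precursors and activation 2 were higher and 7 lower (13.3% and 46.7%, against 21.2% and 21.8% of all probe sets). Fabp5, a fatty acid carrier of radial glia and other neural cells, had log2 values of 8.87, 8.77, 8.66, 8.76 and 8.61 in the powdered chow embryos, against 7.70, 7.68, 7.49, 7.35 and 7.73 in the pelleted chow embryos. The diets were far apart, and the difference was larger than for any of the 35 synthesis genes, at 1.14 ± 0.08 (2.21-fold, limma adjusted p = 2.67e-07). Acsl3, which activates fatty acids for lipid droplets, was 1.57-fold higher (limma adjusted p = 2.12e-06). Slc25a1, the carrier that exports the citrate used by Acly, was lower at a fold of 0.689 (limma adjusted p = 2.71e-06).

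All 5 partners of the elongases in the elongation cycle were called, against 43.1% of all probe sets called. Of these 2 were higher and 3 lower (40.0% and 60.0%, against 21.2% and 21.8% of all probe sets). Hacd3 and Hacd2, dehydratases of the cycle, were lower by 0.67 and by 0.29 on the log2 scale, and Tecr, the reductase that completes it, by 0.51 (limma adjusted p = 3.04e-05, 0.00526 and 0.000131). Hacd1, a dehydratase as well, went the other way and was higher by 0.33, as was Hsd17b12 by 0.24 (limma adjusted p = 0.0126 and 0.0174).

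Of 19 genes for sterol transport, storage and efflux 3 were higher and 8 lower (15.8% and 42.1%, against 21.2% and 21.8% of all probe sets). Abcg4, a sterol exporter of brain cells, and Cyp46a1, the neuronal enzyme that turns cholesterol into its exported hydroxylated form, were lower at folds of 0.648 and 0.654 (limma adjusted p = 2.03e-06 and 3.87e-06). Lrp1, a receptor that takes up lipoproteins, was lower by 0.35 on the log2 scale (limma adjusted p = 0.000286).

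**Figure D4:**
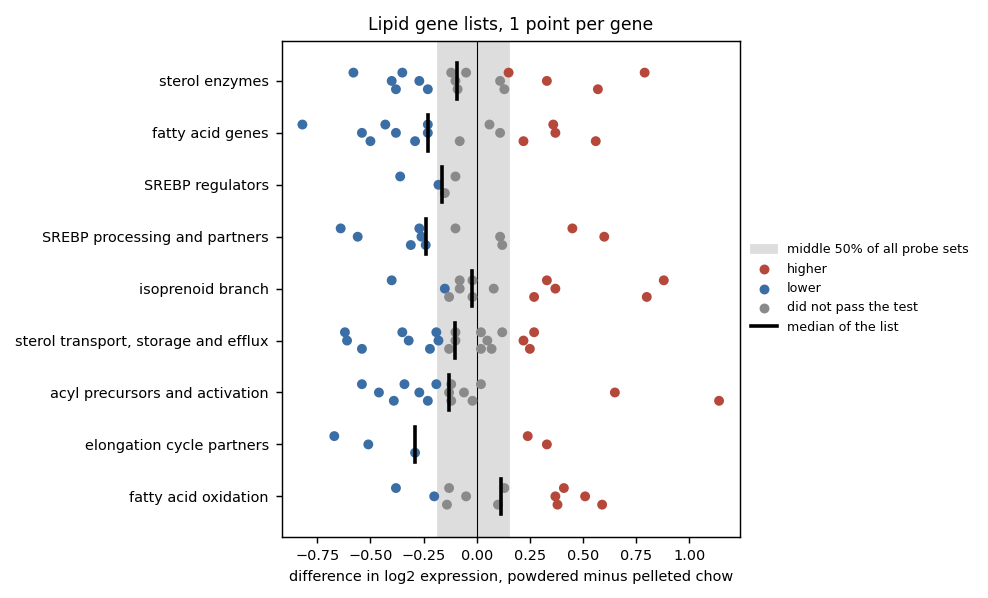
Log2 difference, powdered minus pelleted chow (x axis), of each gene in 9 lists of lipid genes (y axis), a point per gene, with a bar at the list's median and a grey band for the middle 50% of all probe sets (-0.18 to 0.15). Genes lie on both sides of 0 in each list except the 4 SREBP regulators, which all lie below it.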

How the data were processed

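Forebrain RNA was hybridized to 1 array per embryo (5 embryos per diet). The authors normalized the scanned arrays with RMA (robust multichip average) and the MBNI custom probe definition version 15 and deposited log2 values for 21225 probe sets. RMA makes the arrays alike in distribution, so differences are relative to the bulk of probe sets. Without detection calls in the table no gene could be called absent, and the number of arrays limits the precision (median SE of a log2 difference 0.0723). The build behind the probe definition is not given in the sources used here, and promoter sequences came from RefSeq on GRCm38.p6. Probe sets were matched by Entrez ID to RefSeq symbols, which named 20768.

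The diets were compared with limma 3.58.1 (lmFit and eBayes, no covariates) in R 4.3.3, and p-values were adjusted over the whole table (Benjamini-Hochberg). A call was an adjusted p under 0.05, and the limits of the methods were applied as well. Python 3.11.15, pandas 2.3.3, numpy 2.4.6 and matplotlib 3.10.9 were used for counts, promoter motifs and plots. The scripts were tested on simulated data.

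The genes and lists were chosen with earlier results of these data known. Per-array values were given for the 8 sterol enzymes and 8 fatty acid genes of lowest p and for the 4 regulators, and from each further list the 3 genes of lowest p were named. Of the elongation cycle all 5 partners were named. Members of the further lists numbered 78, of which 75 were measured.

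Each result was recomputed with other tests (the methods' t-test, Welch's test, limma with a trend on intensity and a robust prior, limma with array quality weights), after renormalization (quantile, median centring, cyclic loess), after dropping probe sets dimmer than the lower quartile or the median, and without each array in turn. Leaving out the pelleted chow animals 05 and 07 together was chosen after seeing the data, because earlier results had set them apart from the other pelleted chow arrays, as their erythroid averages do here.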

Additional observations from a re-analysis of the deposited data

Results flagged for a closer look

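In 11 of 106 groups of 5 arrays, which cover 53 genes, 1 array lay far from the other 4 of its diet by Dixon's criterion. Chance alone flags about 1 in 20 groups, or 5.3 of 106. Among powdered chow embryos, animal 111 was low for Elovl6 (10.81, others 11.00 to 11.05) and for Scap (9.89, others 10.07 to 10.14). Animal 88 was high for Thrsp (7.46, others 7.31 to 7.34) and low for the SREBP protease gene Mbtps2 (9.75, others 9.95 to 10.01), and animal 108 was low for the oxidation gene Hadha (10.29, others 10.42 to 10.47). Among pelleted chow embryos, animal 05 was low for Elovl5 (10.26, others 10.51 to 10.56) and high for Acacb (7.08, others 6.92 to 6.96). Animal 11 was high for Srebf2 (10.94, others 10.72 to 10.78) and low for Hacd3 (10.11, others 10.47 to 10.59), animal 07 was high for Lss (9.82, others 9.64 to 9.69) and animal 15 was high for Elovl7 (7.38, others 7.15 to 7.17). All values are log2 expression. Leaving out the array in question kept the sign of the difference of each of the 8 synthesis genes and regulators among these, and changed the call of Scap alone, which was lost without animal 111.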

How the results depend on the processing

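Over 20 alternatives, 664 of 697 results for single genes kept their direction and their side of the threshold, 16 calls were lost, 17 were gained and no direction turned, and 29 of the 35 genes had the same call in every alternative run. Fdft1 was lost under median centring (limma adjusted p = 0.0527), without animals 05 and 07 (0.177) and without any of 8 arrays (range over all single arrays 0.0077 to 0.0999). Scap was lost without any of 6 arrays (range 0.0156 to 0.0797). Insig1 was gained in 9 of 10 alternatives other than leaving out single arrays (range over the 10, 0.0116 to 0.102) and without any of 3 arrays, Srebf1 with the methods' t-test (0.0362) and Welch's test (0.0393), Sqle with array quality weights (0.0343) and without animal 11 (0.0165), and Dhcr7 without animal 11 (0.0411). The cause was not tested. The 2 genes past the limits of the methods, Pmvk and Fads2, became 4 with array quality weights, quantile normalization and cyclic loess normalization (with Acat2 and Thrsp) and 4 without animals 05 and 07 together (with Cyp51 and Scd1). Leaving out single arrays gave 2 to 4, with 4 without animal 05 (with Cyp51 and Scd1) and 4 without animal 11 (with Acat2 and Thrsp). The methods' t-test called 26 of the 35 genes after adjustment and 2 at the methods' limits. The filter at the median removed Acacb, Thrsp and Elovl7, which have no value there. The median difference of all probe sets was -0.0173, -0.0319 and -0.0074 under quantile, median and cyclic loess normalization. No paired analysis was possible because the diets share no animal numbers.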

Other observations

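Farnesyl diphosphate, the product of Fdps, also feeds the prenylation of proteins and the making of ubiquinone and dolichol. Of 13 genes of this isoprenoid branch 5 were higher in powdered chow embryos, 2 were lower and 6 did not pass (limma, adjusted p under 0.05), with a median difference of -0.02 on the log2 scale (38.5% higher and 15.4% lower, against 21.2% and 21.8% of all probe sets). Pggt1b, the beta subunit of an enzyme that prenylates proteins, was at 9.60 to 9.73 in powdered chow embryos and 8.60 to 8.98 in pelleted chow embryos, a difference of 0.88 (1.84-fold, limma adjusted p = 8.76e-07). Fnta, the alpha subunit that this enzyme shares with another prenyl transferase, was at 9.63 to 9.95 in powdered chow embryos and 8.82 to 9.06 in pelleted chow embryos, a difference of 0.80 (limma adjusted p = 1.47e-06). Pdss2, a subunit of the synthase that makes the ubiquinone tail, was higher by 0.37 (limma adjusted p = 0.000902). The diets did not overlap for Pggt1b and Fnta.

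Of 12 genes for fatty acid oxidation 5 were higher in powdered chow embryos, 2 were lower and 5 did not pass, with a median difference of 0.11 (41.7% higher and 16.7% lower, against 21.2% and 21.8% of all probe sets). Hadha, the alpha subunit of the mitochondrial trifunctional protein, was at 10.29 to 10.47 in powdered chow embryos and 9.79 to 10.02 in pelleted chow embryos, a difference of 0.51 (limma adjusted p = 1.24e-05). Decr1, the reductase that prepares unsaturated fatty acids for oxidation, was at 7.80 to 8.06 in powdered chow embryos and 7.07 to 7.46 in pelleted chow embryos, a difference of 0.59 (limma adjusted p = 4.7e-05). Cpt1c, the brain form of the carnitine palmitoyltransferase, went the other way, with a difference of -0.38 (limma adjusted p = 7.97e-05). Diet and preparation cannot be told apart for these genes either.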
